A study of Danio rerio with 9 samples.

Results

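RNA from zebrafish tailbuds that overexpressed *tbx16* was compared with RNA from wild-type tailbuds, over every gene with enough reads to test. The comparison used 6 of the 9 samples of the study: 3 tg(*hsp70l:tbx16*) and 3 wild-type samples, each a pool of 10 tailbuds cut just behind the last formed somite. All embryos, wild type included, were given a 30 min heat shock at the 2 to 3 somite stage and were dissected 3 h later. The tg(*hsp70l:tbx16*) embryos carried the *tbx16* coding sequence under the heat-shock promoter of *hsp70l*, which can drive expression in any cell of the embryo, and came from outcrosses of homozygous fish to wild type. The wild-type samples were the embryos without a transgene among the offspring of heterozygous tg(*hsp70l:msgn1*) fish, and the effect of genotype is thus not separable from that of the parents. The insertion was made with Tol2 transposase and carries a lens GFP marker, and the wild-type strain was Tüpfel long fin. The transgenic siblings of the wild-type embryos, which overexpressed *msgn1*, make up the other 3 samples. The sample labels give the heat-shock temperature as 28 °C, below the temperature in the methods of the study. Library totals were 39924412 to 49654769 counts in tg(*hsp70l:tbx16*) and 34971233 to 43889121 in wild type. No label pairs the replicates of the groups. Each p compares 3 pools with 3, with a spread estimated over all 9 samples and shared across genes.

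Tbx16 is a T-box transcription factor of the mesodermal progenitors in the tailbud. Cells that lack it fail to leave the tailbud and do not make trunk paraxial mesoderm, the tissue that forms the somites. The tailbud also gives rise to spinal cord, notochord, blood and vessels, and its progenitors are kept by T-box, Wnt and Fgf signals at the posterior end.

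Of 32020 lines in the table, 19914 genes were tested and 6120 were called (30.7%), that is, had an adjusted p under 0.05 in the quasi-likelihood test of edgeR. Of these, 2995 were higher in tg(*hsp70l:tbx16*) (15.0% of the genes tested) and 3125 lower (15.7%), with a median log2 fold change of 0.03 across the table. With library totals alone in place of TMM scaling the median moved to 0.18 and the split to 3757 higher and 2204 lower. The even balance of rises and falls thus depends on the scaling. With RLE factors, another scaling of the libraries, 2920 were higher and 3188 lower. Without wild-type replicate 1 the calls fell to 3968, with 1825 higher and 2143 lower. No gene called both times changed direction under any of these settings, but they share most or all of the libraries. DESeq2 called 7075 genes, and 8342 genes had an unadjusted p under 0.05 by edgeR.

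The transgene was visible in its own gene. Levels are given as CPM, counts relative to the TMM-scaled library total. *tbx16* was at 836, 976 and 564 CPM in the tg(*hsp70l:tbx16*) samples and 332, 364 and 372 CPM in wild type (log2 fold change 1.15 ± 0.19, adjusted p = 0.0015, where ± is the standard error). Every transgenic sample was above every wild-type sample, and replicate 3 was the lowest of the transgenic samples. Reads of the transgene and of the endogenous gene were not separated in the table. *hsp70l* itself, the heat-shock chaperone whose promoter drives the transgene, was at 14.8, 15.4 and 6.84 against 3.56, 6.19 and 15.5 CPM, and its ranges overlapped (adjusted p = 0.47). The tailbud identity of the samples was clear in wild type, where the progenitor genes *tbxta* and *msgn1* were at 293, 315 and 337 and 732, 889 and 701 CPM.

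Rises and falls came from different levels of expression. The genes called higher had a median wild-type level of 5.73 CPM, against 26.2 CPM for the genes called lower and 8.41 CPM for all genes tested. The wild-type level is also the base of the fold change, so part of this gap follows from the selection. When the genes were cut into 5 equal bins by their mean over the 6 samples, rises were 22.7% of the middle bin (4.66 to 15.97 CPM) and 8.66% of the top bin (above 47.49 CPM), while falls were 15.0% of the middle bin and 25.3% of the top bin. In the top bin 345 genes rose and 1006 fell. In the lowest bin both were fewer, at 6.85% and 7.31%, where few counts limit the test. The groups did not overlap in 2982 of the genes called higher and 3099 of those called lower, and over all genes tested 27.8% had every transgenic sample above wild type and 25.1% every one below.

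**Figure D1:**
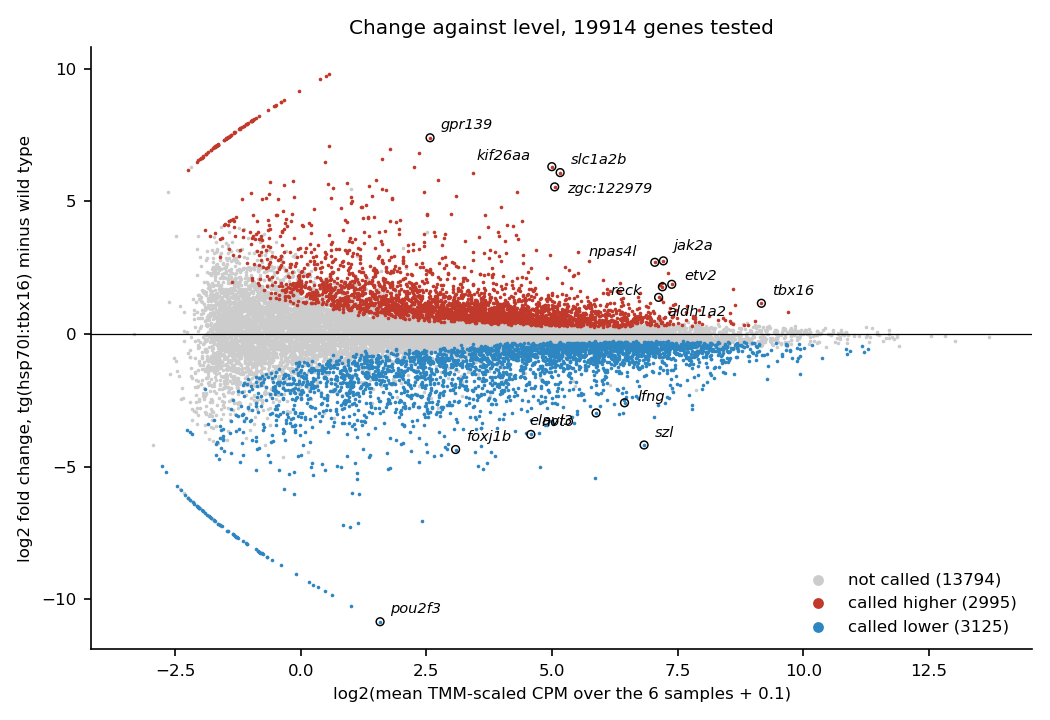
Log2 fold change (vertical axis) against the log2 mean level in CPM over the 6 samples (horizontal axis), 1 point per gene, for the 19914 genes tested. Red points are the 2995 genes called higher and blue points the 3125 called lower, the falls reach further into high levels than the rises, and the curved lines of points at the far left are genes at 0 in every library of 1 group, whose fitted fold has no meaning as a size.

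The genes that the study lists for cell state transitions in wild-type tailbuds fell more often than they rose. Of 1126 tested genes named in those lists, 122 were higher (10.8%) and 471 lower (41.8%), with a median log2 fold change of -0.33. Outside the lists 18788 genes were tested and 29.4% called, and there the directions were nearly even: 2873 were higher (15.3%) and 2654 lower (14.1%), with a median of 0.05. Of the 2995 rising genes 2873 carried no transition label, among them 492 of the 503 genes that rose by at least 4-fold. Of all 19914 genes tested 18788 carried none, so these counts are near the share of all genes. The genes in the lists were also more abundant, with a median wild-type level of 55.0 CPM against 7.33 CPM outside.

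Among the unlisted genes, the largest rises started from almost nothing, which a ranking by fold change favors. *kif26aa*, an atypical kinesin, was at 76.6, 49.96 and 61.8 CPM in the tg(*hsp70l:tbx16*) samples and 0.730, 0.438 and 1.18 CPM in wild type (log2 fold change 6.30 ± 0.51, adjusted p = 2.5e-05). *slc1a2b*, a glutamate transporter of glia and neurons, was at 81.4, 66.7 and 62.6 against 0.638, 1.37 and 1.13 CPM (log2 fold change 6.08 ± 0.26, adjusted p = 1.1e-06). *fmn2b*, a formin that nucleates actin filaments, was at 33.1, 33.3 and 47.9 against 1.12, 0.905 and 0.746 CPM (log2 fold change 5.36 ± 0.26, adjusted p = 1.8e-06). In all of these every transgenic sample lay far above every wild-type sample. *gpr139*, an orphan G protein coupled receptor, was at 11.5, 9.26 and 14.1 against 0.068, 0 and 0.120 CPM, and *anos1a*, a secreted matrix glycoprotein, at 7.90, 8.13 and 3.82 against 0, 0 and 0.144 CPM. The NMDA receptor subunit gene *grin2cb* was at 22.6, 16.7 and 23.5 against 0.342, 0.263 and 0.313 CPM and the Wnt ligand gene *wnt4b* at 6.80, 5.93 and 3.31 against 0, 0.175 and 0.120 CPM. The 20 largest rises also held *c1ql4a*, a secreted C1q-like protein, *opn6a*, an opsin, *cxxc4*, a Dishevelled-binding inhibitor of Wnt signaling, *HNRNPLL*, a splicing regulator, and *ppp1r3aa*, a glycogen-targeting phosphatase subunit. The remaining members, among them *prune2* and *zgc:122979*, include several known only by a clone name. In none of the 20 did a transgenic and a wild-type sample overlap, as the rule for naming them required.

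**Figure D2:**
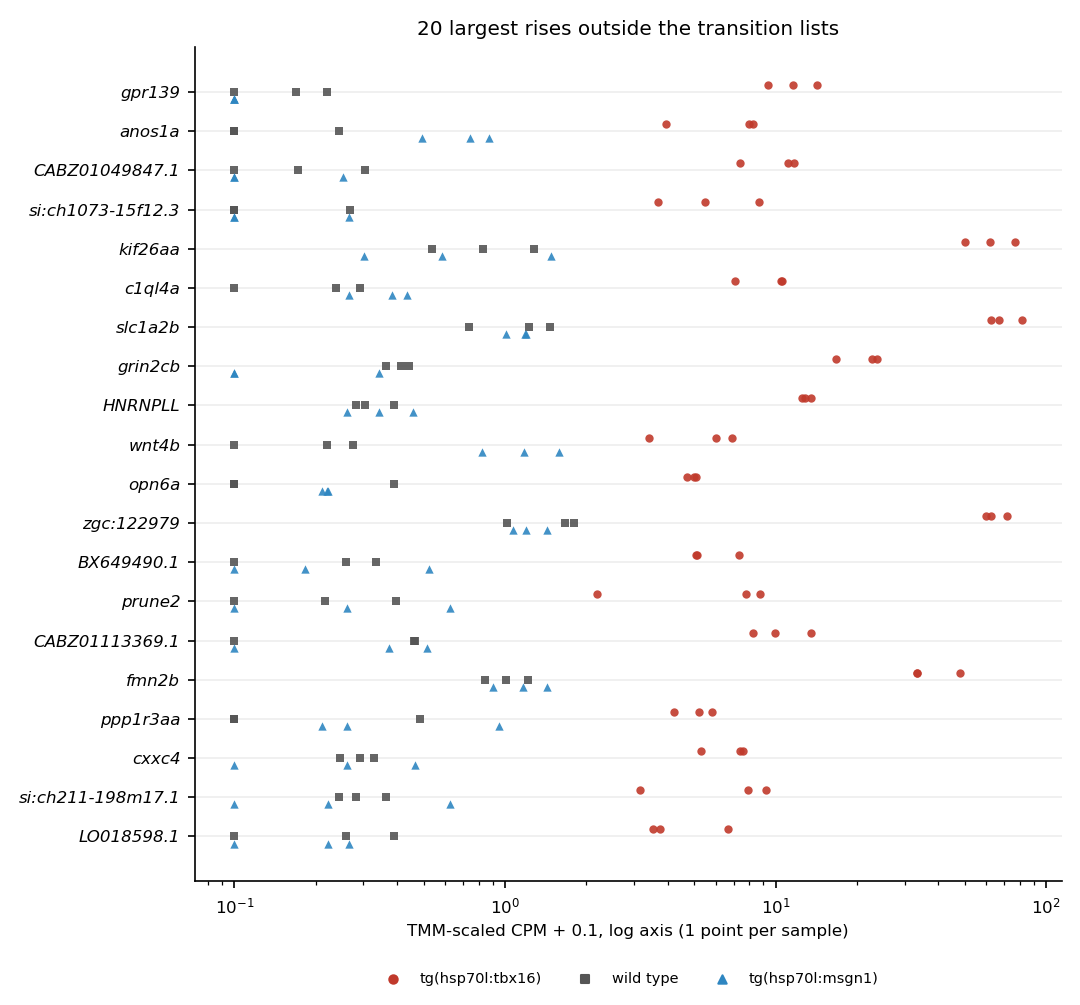
Level in each sample (horizontal log axis, TMM-scaled CPM + 0.1) of the 20 unlisted genes with the largest rises, 1 row per gene. Red circles are tg(hsp70l:tbx16), grey squares wild type and blue triangles tg(hsp70l:msgn1), and in every row the red circles lie to the right of both other groups.

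Several abundant unlisted genes rose as well. *jak2a*, a Janus kinase that passes cytokine signals to Stat factors, was at 316, 255 and 205 CPM in the tg(*hsp70l:tbx16*) samples and 39.0, 33.1 and 43.0 CPM in wild type (log2 fold change 2.75 ± 0.17, adjusted p = 5.7e-06). *reck*, a membrane-anchored regulator of metalloproteases and Wnt7 signaling, was at 229.6, 219 and 231 against 69.5, 61.0 and 68.2 CPM (log2 fold change 1.77 ± 0.13, adjusted p = 1.5e-05). *slit2*, a guidance ligand for Robo receptors, was at 183, 134 and 163 against 52.5, 56.1 and 54.8 CPM (log2 fold change 1.56 ± 0.14, adjusted p = 4.6e-05). No sample of either group overlapped the other in these, which the rule for naming list members required of *jak2a* and *slit2*. The hindbrain transcription factor gene *mafba* was at 83.1, 90.9 and 69.3 against 9.89, 8.06 and 10.9 CPM (log2 fold change 3.08 ± 0.19, adjusted p = 5.7e-06) and the ubiquitin ligase gene *trim36* at 61.3, 55.3 and 49.0 against 5.95, 6.51 and 8.78 CPM (log2 fold change 2.96 ± 0.19, adjusted p = 6.2e-06). The zinc finger gene *osr2*, active in intermediate mesoderm and limb, was at 30.9, 37.2 and 29.1 against 1.94, 1.96 and 1.83 CPM (log2 fold change 4.09 ± 0.19, adjusted p = 1.7e-06), and *foxp2*, a forkhead factor best known in neurons, at 30.7, 24.7 and 30.2 against 2.53, 1.55 and 2.45 CPM.

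A stricter view asked for genes that were off in one group. There were 36 genes under 0.1 CPM in every wild-type sample and at least 0.5 CPM in every transgenic sample, all 36 called. The rule itself requires a wide gap without overlap, so these calls add no support. None was in a transition list, but the listed genes had a median wild-type level of 55.0 CPM, so the rule left little room for them. They included *eomesb*, a T-box gene of early mesendoderm, at 1.25, 0.858 and 1.16 against 0, 0.058 and 0 CPM, *foxg1d*, a forkhead gene, at 1.97, 2.47 and 3.27 against 0, 0.088 and 0 CPM, *sctr*, the secretin receptor gene, at 2.85, 3.32 and 2.06 against 0, 0.058 and 0 CPM, and *slc24a5*, a pigment cell ion exchanger gene, at 1.34, 1.00 and 1.24 against 0, 0 and 0 CPM. Because *slc24a5* had no read in any wild-type library, its rise can be given only as a bound of at least 47.1-fold, against a floor of 3 counts over the wild-type group. The reverse rule gave 26 genes, 1 of them in a transition list. *pou2f3*, a POU factor of epidermis and tuft cells, had 299, 181 and 216 reads in the wild-type libraries and none in the transgenic ones, a fall of at least 284-fold, and *apoea*, an apolipoprotein gene, had 172, 77 and 214 reads and none, a fall of at least 189-fold. The msgn1 libraries, from the same parents as wild type, were at 5.52, 4.31 and 2.58 CPM for *pou2f3* and at 1.57, 3.31 and 0.759 CPM for *apoea*. Over all calls, 75 genes had no read in any wild-type library and 66 none in any transgenic library. A difference of transgene and a difference of parental genome cannot be told apart for these genes.

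Fewer cells of a type and less RNA per cell cannot be told apart in pooled tissue, and this holds for every tissue gene that follows. Vessel genes were called in both directions, and the share of vessel and blood genes that rose was no larger than that of all genes. Of 21 tested vessel genes 3 were higher (14.3%, against 15.0% of all genes) and 7 lower (33.3%, against 15.7%), with a median of 0.11. Of 22 blood genes 2 were higher (9.09%) and 1 lower, with a median of -0.43. *npas4l*, the transcription factor at the top of the hemato-vascular cascade (the cloche gene), was at 215, 178 and 293 CPM in the tg(*hsp70l:tbx16*) samples and 32.6, 42.1 and 31.0 CPM in wild type (log2 fold change 2.70 ± 0.20, adjusted p = 1.5e-05). *etv2*, the Ets factor that specifies vessel progenitors, was at 197, 259 and 329 against 77.6, 76.7 and 60.7 CPM (log2 fold change 1.87 ± 0.27, adjusted p = 0.00075), and *tal1*, a bHLH factor of blood and vessel progenitors, at 99.9, 109.9 and 159.9 against 72.8, 69.5 and 63.7 CPM (log2 fold change 0.84 ± 0.17, adjusted p = 0.0043). No transgenic sample overlapped wild type for any of these, as the naming rule required, and replicate 3, with the least *tbx16*, was the highest in each. *cldn5b*, a tight junction gene of vessels, was at 34.4, 36.4 and 39.0 against 6.79, 6.02 and 4.62 CPM (log2 fold change 2.65 ± 0.18, adjusted p = 9.5e-06). Lower were the Vegf receptor genes *kdrl*, at 4.83, 4.72 and 5.46 against 21.6, 21.2 and 25.7 CPM (log2 fold change -2.19 ± 0.15, adjusted p = 8.9e-06), and *kdr*, at 3.01, 1.70 and 1.69 against 12.2, 7.97 and 6.01 CPM (log2 fold change -2.04 ± 0.33, adjusted p = 0.0015). *fli1a* was at 16.1, 18.3 and 24.2 against 43.7, 42.8 and 44.0 CPM, and the endothelial cadherin gene *cdh5* at 5.59, 4.39 and 4.53 against 8.34, 7.16 and 7.75 CPM (adjusted p = 0.018), a call lost with library totals alone and without transgenic replicate 2 or 3 or wild-type replicate 1. The blood progenitor gene *lmo2*, at 124, 172 and 216 against 122, 126 and 102 CPM, missed the threshold (adjusted p = 0.051) but was called by DESeq2, with library totals alone and without transgenic replicate 1, and the red cell factor *gata1a* was at 20.2, 24.2 and 33.0 against 27.2, 25.0 and 20.3 CPM (adjusted p = 0.79). The other rise in the blood list was *coro1a*, an actin regulator of white blood cells, with 15, 32 and 18 reads in the transgenic libraries and none in wild type (at least 17.7-fold).

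Genes of the paraxial mesoderm were called in both directions. Of 28 presomitic and somite boundary genes, nearly all were in the transition lists, and the median of the 28 was -0.41. Of these 28, 5 were higher (17.9%, against 15.0% of all genes) and 11 lower (39.3%, against 15.7%). *tbx18*, a T-box gene of the anterior somite, was at 14.8, 16.1 and 10.9 against 3.78, 3.21 and 4.36 CPM (log2 fold change 1.88 ± 0.25, adjusted p = 0.00049). *mespba*, a bHLH gene of the forming somite boundary, was at 13.2, 24.9 and 43.1 against 11.1, 9.76 and 10.1 CPM (log2 fold change 1.39 ± 0.34, adjusted p = 0.011). The forkhead gene *foxc1a*, with wild-type samples at 175, 182 and 158 CPM, rose by a log2 fold change of 0.67. *tbx6*, a T-box gene of the presomitic mesoderm, fell from 938, 1026 and 870.4 CPM in wild type to 207, 208 and 455 CPM (log2 fold change -1.70). The muscle determination genes *myod1* and *myf5* were at 110.3, 150.5 and 161 against 128, 132 and 146 CPM and at 166, 262 and 349 against 310.3, 371 and 339.7 CPM, and neither passed the test (adjusted p = 0.81 and 0.19), although *myf5* was called without transgenic replicate 3. Among the T-box genes 5 of 20 were higher (25%) and 8 were lower (40%). Of the 5, *tbxas1* is a thromboxane synthase gene that only shares letters with the family. Without transgenic replicate 1 or 2 or wild-type replicate 1 the higher count was 3. The higher T-box genes besides *tbx16* and *tbx18* were *eomesb* and *eomesa*, the latter at 1.34, 0.911 and 0.311 against 0, 0 and 0.120 CPM. The call of *eomesa* was lost without transgenic replicate 1 or 2 or wild-type replicate 1 or 2, and that of *tbxas1* whichever library was left out.

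The interferon list had the highest median of the lists with tested genes. Of its 26 genes in the table, 16 had enough reads to test. The read filter can keep a gene with enough reads in 1 group alone. Genes that are high only in the transgenic samples can thus enter and raise the share and the median. Of the 16 tested genes, 8 were higher (50%, against 15.0% of all genes) and 1 was lower. The median log2 fold change was 1.08 against 0.03 for all genes. *irf1a*, an interferon-induced transcription factor, was at 6.93, 6.86 and 10.9 CPM in the tg(*hsp70l:tbx16*) samples and 1.69, 1.08 and 1.18 CPM in wild type (log2 fold change 2.64 ± 0.29, adjusted p = 0.00014). The signal transducers *stat2* and *stat1a* were at 28.2, 25.4 and 30.6 against 11.5, 12.3 and 11.6 CPM (log2 fold change 1.25 ± 0.16, adjusted p = 0.00042) and at 33.6, 39.99 and 40.02 against 17.6, 17.5 and 19.8 CPM (log2 fold change 1.05 ± 0.21, adjusted p = 0.0044). *irf7*, which switches on interferon genes, was at 3.25, 4.75 and 4.15 against 1.82, 2.54 and 1.25 CPM (log2 fold change 1.12 ± 0.33, adjusted p = 0.028). For all of these every transgenic sample was above every wild-type sample, as the rule for naming list members required. Over all genes tested 27.8% showed this. *rsad2*, the antiviral enzyme viperin, had 30, 60 and 19 reads in the transgenic libraries and none in wild type, a rise of at least 29.7-fold. *mxa*, an antiviral GTPase gene, went the other way at 0.351, 0.304 and 0.311 against 1.71, 1.78 and 1.73 CPM (log2 fold change -2.42 ± 0.40, adjusted p = 0.0015). The call of *irf7* was lost without transgenic replicate 2 or 3 or wild-type replicate 1 or 3. Without transgenic replicate 2 the count of higher members was 4, and without wild-type replicate 3 it was 5. In the Jak and Stat list, 4 of 23 genes were higher (17.4%, against 15.0% of all genes), namely *jak2a*, *jak2b*, *stat1a* and *stat2*, of which both Stat genes also stand in the interferon list. The call of *jak2b* was lost without wild-type replicate 1 or 2. The lower member was *jak1*, at 90.6, 75.8 and 95.0 against 107, 116 and 112 CPM, a call lost with library totals alone and when transgenic replicate 2 or any wild-type library was left out. The median of the list was -0.27.

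**Figure D3:**
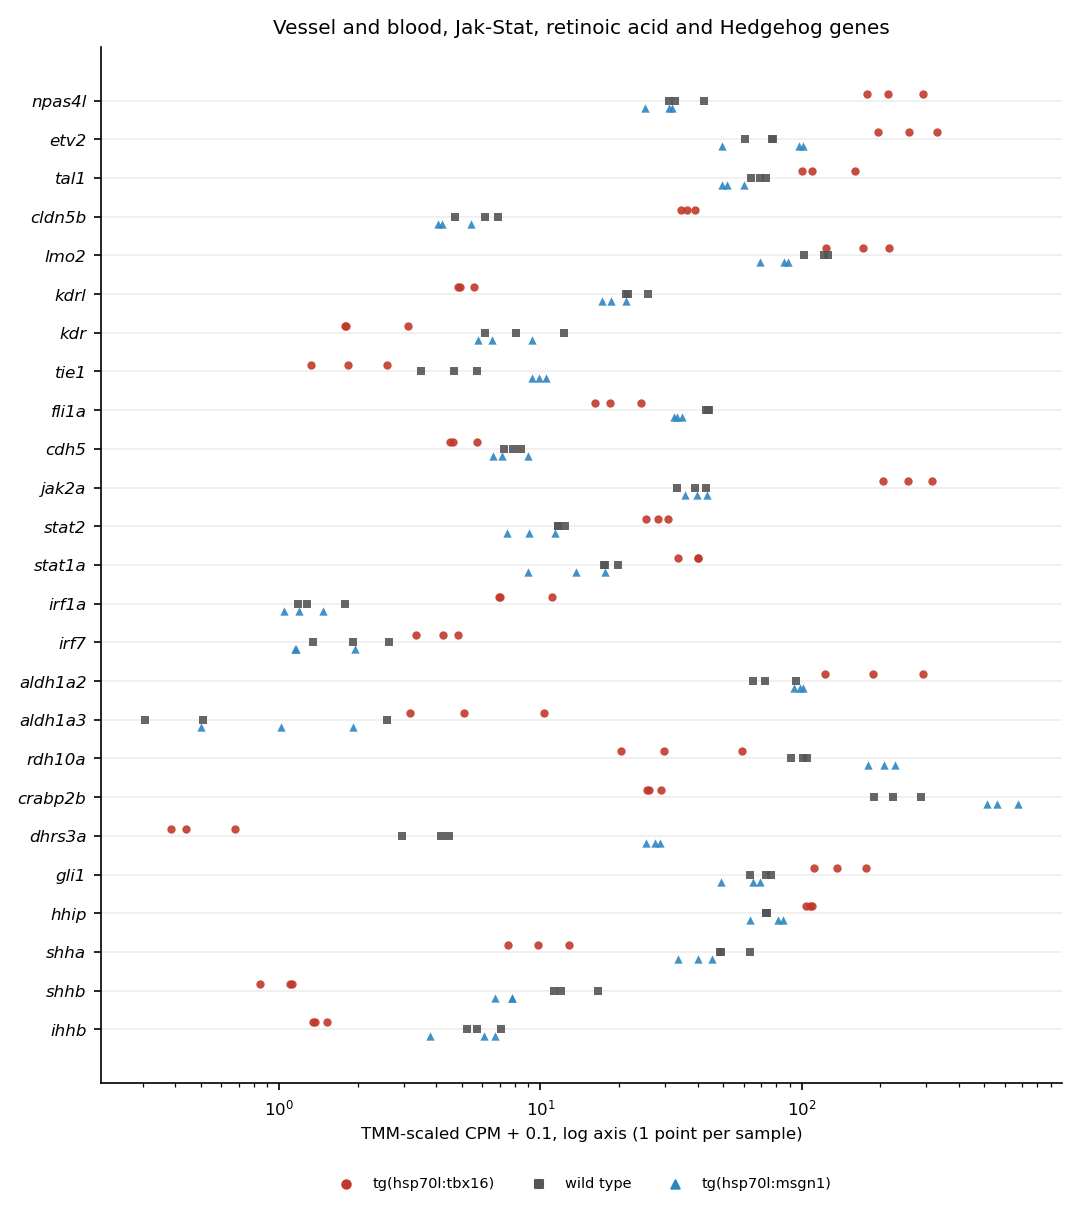
Level in each sample (horizontal log axis, TMM-scaled CPM + 0.1) of vessel and blood, Jak-Stat and interferon, retinoic acid and Hedgehog genes, 1 row per gene. Red circles are tg(hsp70l:tbx16), grey squares wild type and blue triangles tg(hsp70l:msgn1). Among vessel and blood, retinoic acid and Hedgehog genes, some rows have red circles right of the grey squares and others left of them. In the Jak-Stat and interferon rows all are to the right, but only genes called higher are drawn there. The lower genes jak1 and mxa are left out.

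Retinoic acid genes were mostly lower where called. Of 26 genes 2 were higher (7.69%, against 15.0% of all genes) and 13 lower (50%, against 15.7%). The higher genes encode enzymes that make retinoic acid from retinal. *aldh1a2*, the main one in somites, was at 123.3, 187 and 292 CPM in the tg(*hsp70l:tbx16*) samples and 72.2, 65.0 and 94.9 CPM in wild type (log2 fold change 1.38 ± 0.26, adjusted p = 0.0035), and *aldh1a3* at 10.2, 3.07 and 5.02 against 0.205, 0.409 and 2.48 CPM (log2 fold change 2.55 ± 0.84, adjusted p = 0.042). The falls included *rdh10a*, the enzyme of the preceding step, from retinol to retinal, at 20.2, 29.8 and 59.0 against 105, 91.3 and 102 CPM (log2 fold change -1.45 ± 0.31, adjusted p = 0.0061). *crabp2b*, a carrier protein of retinoic acid, was at 26.0, 25.5 and 28.8 against 286, 224 and 189 CPM (log2 fold change -3.12 ± 0.17, adjusted p = 3.2e-06). *cyp26a1*, the enzyme that degrades retinoic acid, was at 104, 119 and 118 against 145, 159.6 and 157 CPM (log2 fold change -0.44 ± 0.10, adjusted p = 0.0088), a call lost with library totals alone. Several receptor genes were also lower, with log2 fold changes of -1.65 for *rxraa* and -1.64 for *rargb*. The call of *aldh1a2* held whenever a single library was left out. That of *aldh1a3* was lost without transgenic replicate 1 or 3 or wild-type replicate 1 or 2, where its log2 fold change was 1.98, 2.66, 2.05 and 2.18.

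Of 15 Hedgehog genes 3 were higher and 6 lower, and 1 of the higher and 5 of the lower genes changed by at least 1.5-fold. Over all genes 15.0% were higher and 15.7% lower. Ligand genes were among the falls: *shha* was at 9.70, 12.7 and 7.42 against 49.2, 48.7 and 63.5 CPM (log2 fold change -2.43 ± 0.21, adjusted p = 3.5e-05), *shhb* at 0.746, 1.02 and 0.999 against 11.9, 11.1 and 16.5 CPM (log2 fold change -3.83 ± 0.23, adjusted p = 4.3e-06) and *ihhb* at 1.27, 1.43 and 1.24 against 5.13, 5.61 and 6.98 CPM (log2 fold change -2.16 ± 0.26, adjusted p = 0.00024). These ligands come from notochord and floor plate, and in the notochord list 13 of 19 genes were lower, with sums of 2715 to 2923 against 4029 to 4522 CPM. Their part in the fall of the ligands was not tested. The transcriptional effector *gli1*, itself a target of the pathway, was higher at 176, 112 and 136 CPM in the tg(*hsp70l:tbx16*) samples and 72.8, 63.5 and 76.6 CPM in wild type (log2 fold change 0.99 ± 0.18, adjusted p = 0.0025), as were the ligand-binding inhibitor *hhip*, at 109, 107 and 104 against 73.4, 73.1 and 73.1 CPM (log2 fold change 0.55 ± 0.12, adjusted p = 0.0058), and the intracellular inhibitor *sufu*, at 85.8, 91.8 and 87.2 against 67.2, 65.8 and 71.4 CPM. The groups did not overlap in any of these genes, as the naming rule required, and the call of *sufu* was lost without wild-type replicate 1 or 2. The median of the list was 0.01, and it was 0.16 with library totals alone.

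Calls among Wnt, Fgf and Bmp genes were mostly falls. Of 38 Wnt ligand and receptor genes, 17 were lower (44.7%, against 15.7% of all genes) and 3 higher (7.9%, against 15.0%). The higher ones were *wnt4b*, the co-receptor gene *lrp6* at 244, 198 and 207 against 106, 116 and 106 CPM (log2 fold change 0.99 ± 0.17, adjusted p = 0.0019) and the receptor gene *fzd6* at 92.2, 93.9 and 104 against 68.9, 74.0 and 61.0 CPM (log2 fold change 0.51 ± 0.12, adjusted p = 0.012), the last a call lost without wild-type replicate 3. In a separate list of 25 Wnt antagonist and target genes, 9 were lower (36%) and 2 higher (8%), with a median of -0.39. *tcf7*, a nuclear effector of Wnt signaling, was at 159, 127 and 121 against 68.3, 71.3 and 70.2 CPM (log2 fold change 0.95 ± 0.13, adjusted p = 0.00048), and *notum1b*, a secreted enzyme that inactivates Wnt ligands and is in a transition list, was at 84.0, 94.2 and 101 against 12.4, 14.6 and 14.1 CPM (log2 fold change 2.76 ± 0.16, adjusted p = 4.2e-06). In the Fgf ligand and receptor list 13 of 30 were lower and 5 higher, including the receptor genes *fgfr3* at 41.7, 21.1 and 24.5 against 7.16, 7.01 and 7.75 CPM (log2 fold change 1.99 ± 0.26, adjusted p = 0.00042) and *fgfr1bl* at 11.9, 10.6 and 12.01 against 7.27, 6.75 and 6.18 CPM, and *fgfr1op*, a centrosome gene that shares only its name. The calls of *fgfr1bl* and *fgfr1op* were each lost in 5 of the 6 fits that left out 1 library. The count of higher members was 3 without transgenic replicate 1 or 2, 2 without wild-type replicate 3 and 1 without transgenic replicate 3 or wild-type replicate 1 or 2. Of 45 Bmp and Gdf genes 23 were lower and 5 higher. The antagonist gene *szl* fell from 189, 259 and 199 to 8.49, 8.79 and 18.2 CPM, while the antagonist genes *grem2b*, *grem1b* and *nog3* rose from levels under 2 CPM, the last at 2.96, 2.79 and 1.86 against 1.16, 0.935 and 0.986 CPM. The call of *grem1b* was lost without transgenic replicate 2 or wild-type replicate 2 and that of *grem2b* without wild-type replicate 1. In the Nodal, activin and Tgf-beta list the ligand gene *tgfb3* was at 68.0, 75.8 and 69.0 against 25.3, 24.5 and 19.8 CPM (log2 fold change 1.61 ± 0.14, adjusted p = 3.9e-05) and its receptor gene *tgfbr2b* at 23.9, 27.8 and 22.7 against 16.1, 15.9 and 9.79 CPM (log2 fold change 0.83 ± 0.21, adjusted p = 0.014). These were the rises in that list by the main test, against 7 falls, and the call of *tgfbr2b* was lost without transgenic replicate 2.

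Genes for cell movement and guidance were called in both directions. Of 61 guidance genes, 13 were higher (21.3%, against 15.0% of all genes) and 19 lower (31.15%, against 15.7%). Besides *slit2*, the receptor genes *plxnd1*, for semaphorins on vessels, and *nrp2a* were higher, at 20.03, 16.1 and 17.1 against 6.63, 5.40 and 6.01 CPM (log2 fold change 1.56 ± 0.15, adjusted p = 7.9e-05) and at 43.5, 40.7 and 42.1 against 14.8, 16.2 and 22.01 CPM (log2 fold change 1.25 ± 0.18, adjusted p = 0.00073). The related receptor gene *nrp1a* fell, at 12.2, 7.77 and 9.99 against 81.2, 67.5 and 93.1 CPM (log2 fold change -3.01 ± 0.20, adjusted p = 8.5e-06). Among 23 chemokine genes 7 were higher (30.4%) and 5 lower (21.7%). The ligand genes *cxcl12b* and *cxcl12a* moved apart, at 165, 191 and 184 against 114, 121 and 122 CPM (log2 fold change 0.60 ± 0.12, adjusted p = 0.004) and at 23.2, 36.1 and 53.2 against 65.0, 57.8 and 71.3 CPM (log2 fold change -0.79 ± 0.27, adjusted p = 0.047), and so did the genes of their receptor, *cxcr4b* at 29.9, 39.5 and 43.3 against 25.8, 29.7 and 26.9 CPM and *cxcr4a* at 16.3, 18.8 and 21.96 against 38.2, 47.2 and 48.9 CPM. The calls of *cxcl12a* and *cxcr4b* were each lost in 5 of the 6 fits that left out 1 library. The higher count in this list was 3 without transgenic replicate 3, 3 without wild-type replicate 1 and 4 without transgenic replicate 2 or wild-type replicate 2. The integrin gene *itgb5* and the laminin gene *lama4* were at 137, 139.5 and 90.1 against 44.9, 52.5 and 44.9 CPM (log2 fold change 1.37 ± 0.17, adjusted p = 0.00035) and at 68.6, 54.0 and 50.5 against 22.6, 19.7 and 25.2 CPM (log2 fold change 1.36 ± 0.17, adjusted p = 0.00033), in a list of 41 laminin, fibronectin and integrin genes where 16 fell.

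Called cilium genes were mostly higher. In the motile cilium list 19 of the higher genes rose by at least 1.5-fold, and in the transport list 2. Of 67 motile cilium genes tested, 21 were higher (31.3%, against 15.0% of all genes) and 4 lower, with a median of 0.47. All 7 called genes of the 19 in the intraflagellar transport list, which carry cargo along the cilium, were higher, with a median of 0.35. *ift140*, a transport gene, was at 103, 85.5 and 86.3 CPM in the tg(*hsp70l:tbx16*) samples and 56.6, 52.8 and 57.2 CPM in wild type (log2 fold change 0.72 ± 0.11, adjusted p = 0.00086), and *bbs7*, of the complex that sorts cilium membrane proteins, at 50.2, 60.8 and 55.1 against 32.3, 30.6 and 33.7 CPM (log2 fold change 0.78 ± 0.12, adjusted p = 0.0011). The axoneme genes were lower in level: *dnah9l*, a dynein heavy chain gene, was at 5.20, 3.07 and 2.89 against 1.44, 0.935 and 1.49 CPM (log2 fold change 1.52 ± 0.33, adjusted p = 0.0064), *tekt1*, a tektin gene, at 3.23, 4.97 and 5.13 against 1.85, 0.847 and 2.36 CPM (log2 fold change 1.39 ± 0.35, adjusted p = 0.014) and *rsph10b*, a radial spoke gene, at 5.79, 6.56 and 4.53 against 1.82, 1.81 and 3.08 CPM (log2 fold change 1.33 ± 0.28, adjusted p = 0.0056). No groups overlapped in these, as the naming rule required. The transcription factors that switch on motile cilium genes were called in both directions or not at all. *foxj1b* fell to 0.856, 0.840 and 0.622 against 12.4, 15.3 and 20.04 CPM (log2 fold change -4.36 ± 0.24, adjusted p = 3.2e-06), *rfx2* was lower with a log2 fold change of -0.69, and *foxj1a* was at 60.8, 68.6 and 92.8 against 68.1, 61.8 and 65.6 CPM (adjusted p = 0.37). *rfx3* was higher by 0.63, a call lost without transgenic replicate 1 or 2 or wild-type replicate 1 or 2. The transport count was 3 without transgenic replicate 2 or 3 or wild-type replicate 1 or 2, and the motile cilium count was 12 without wild-type replicate 1 and 14 without transgenic replicate 2. With library totals in place of TMM scaling the transport count was 13.

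**Figure D4:**
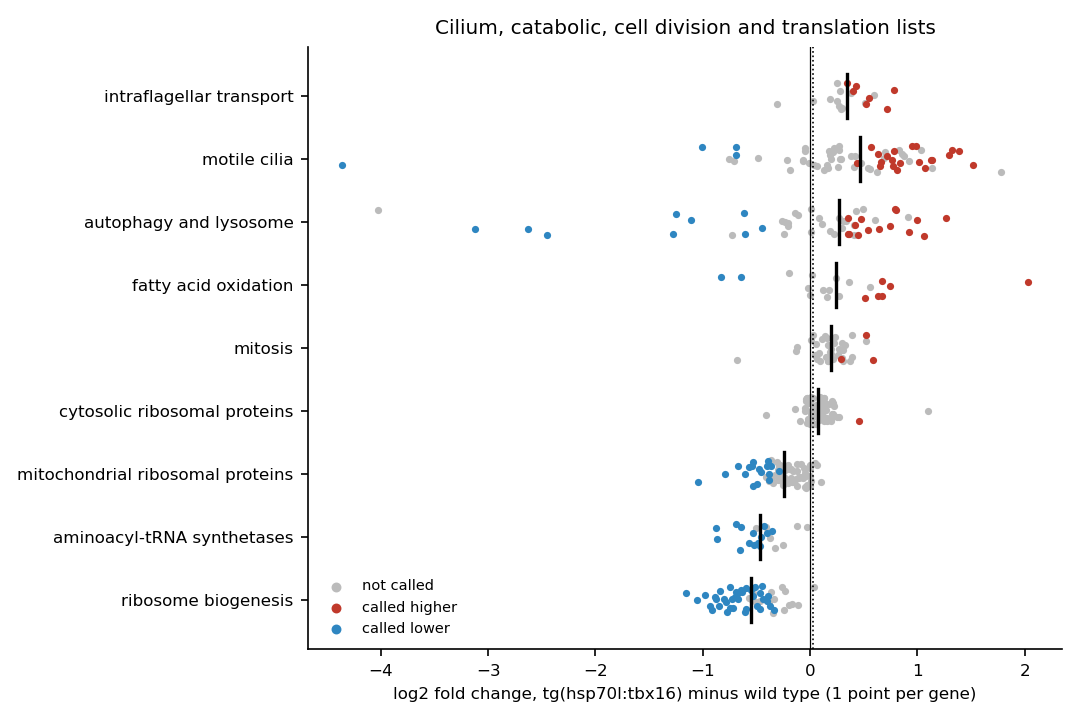
Log2 fold change (horizontal axis) of each tested gene, 1 point per gene, in 9 lists of cilium, catabolic, cell division and translation genes. Red points were called higher, blue points lower and grey points not called, the black bar is the median of the list, and the dotted line is the median of all genes at 0.03. The medians of the transport and motile cilium lists are 0.35 and 0.47, and that of ribosome biogenesis is -0.55.

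Autophagy and lysosome genes were called in both directions. Of 49 autophagy and lysosome genes, 15 were higher (30.6%, against 15.0% of all genes) and 9 lower (18.4%, against 15.7%). Among the rises were the autophagosome genes *atg5* at 42.6, 45.6 and 36.1 CPM in the tg(*hsp70l:tbx16*) samples and 21.8, 26.3 and 23.4 CPM in wild type (log2 fold change 0.80 ± 0.13, adjusted p = 0.0015) and *atg9a* at 15.8, 16.5 and 14.3 against 7.36, 7.92 and 7.001 CPM (log2 fold change 1.06 ± 0.20, adjusted p = 0.0032) and the lysosomal enzyme gene *gba* at 21.5, 21.1 and 19.3 against 8.46, 9.17 and 8.13 CPM (log2 fold change 1.26 ± 0.17, adjusted p = 0.00047). Among the falls were the lysosomal protease genes *ctsll* at 51.2, 4.29 and 7.35 against 115, 133 and 139.7 CPM (log2 fold change -2.63 ± 0.74, adjusted p = 0.023) and *ctsc* at 168, 109.6 and 108 against 317, 325 and 293 CPM. In *ctsll* transgenic replicate 1 lay far above the other transgenic samples, and its call was lost without transgenic replicate 3. The protease gene *ctsk* was higher, a call lost without transgenic replicate 1 or 3 or wild-type replicate 1 or 2. Without transgenic replicate 1 the log2 fold change of *ctsll* was -4.47. The larger number of higher genes did not hold under these alternatives: 6 were higher and 8 lower without transgenic replicate 1, 6 and 7 without wild-type replicate 1, 8 and 8 without wild-type replicate 3, and 8 and 8 at 1.5-fold. Without transgenic replicate 2 or wild-type replicate 2 they were 8 and 7, and without transgenic replicate 3 they were 7 and 6. In fatty acid oxidation 6 of 19 genes were higher (31.6%) and 2 lower (10.5%). *cpt1aa*, which admits fatty acids to mitochondria, was at 75.6, 80.5 and 70.4 against 49.6, 41.4 and 51.2 CPM (log2 fold change 0.67 ± 0.17, adjusted p = 0.013), and the dehydrogenase genes *acadl* and *acadm* rose by log2 fold changes of 0.75 and 0.63. The related gene *cpt1ab* was at 6.65, 6.77 and 5.95 against 9.82, 10.2 and 14.4 CPM, lower by the main test but not called with library totals alone. Without wild-type replicate 2 the higher count was 4 and the call of *cpt1aa* was lost.

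Ribosome biogenesis fell widely. Of its 53 genes 37 were lower (69.8%, against 15.7% of all genes) and none was higher, with a median of -0.55. Of the rest 9 were lower at an unadjusted p under 0.05, and DESeq2 called 44 lower and none higher. The lower count was 25 to 34 when single libraries were left out, with the lowest value without wild-type replicate 1. It was 29 with library totals alone and 25 at 1.5-fold. *polr1b*, a subunit of RNA polymerase I, was at 54.1, 53.1 and 63.7 against 128, 122 and 130.2 CPM (log2 fold change -1.15 ± 0.13, adjusted p = 0.00014), and *nolc1*, a nucleolar scaffold gene, at 238, 174 and 265 against 501, 498 and 409.6 CPM (log2 fold change -1.06 ± 0.19, adjusted p = 0.0024). Of 21 aminoacyl-tRNA synthetase genes, 14 were lower, between 6 and 8 without transgenic replicate 1 or 2 or wild-type replicate 1 or 2. The genes of the ribosome itself did not follow. Of 80 cytosolic ribosomal protein genes, 1 was higher (*rplp2*, a call lost whichever single library was left out) and none lower (no other member had an unadjusted p under 0.05), with a median of 0.07, although with library totals alone 18 were higher. In the splicing list 26 of 88 were lower, a count of 9 to 11 without transgenic replicate 1 or 2 or wild-type replicate 1 or 2 and of 17 without wild-type replicate 3. In DNA replication 12 of 48 were lower (25%) and 2 higher (4.2%, against 15.0% of all genes). Without transgenic replicate 1 or 2 or wild-type replicate 1 or 2, 5 to 7 were lower. *pcna*, the sliding clamp of DNA polymerase, was at 369, 398 and 477 against 705, 737 and 574 CPM (adjusted p = 0.014), a call lost without transgenic replicate 1 or 2 or wild-type replicate 1 or 2. The mitosis list had 3 higher and none lower of 40. Its higher share of 7.5% was below the 15.0% of all genes, and its higher count was 10 by DESeq2 and 16 with library totals. Of 15 Hippo and Yap target genes none was called by edgeR or by DESeq2, and 1 had an unadjusted p under 0.05.

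**Figure D5:**
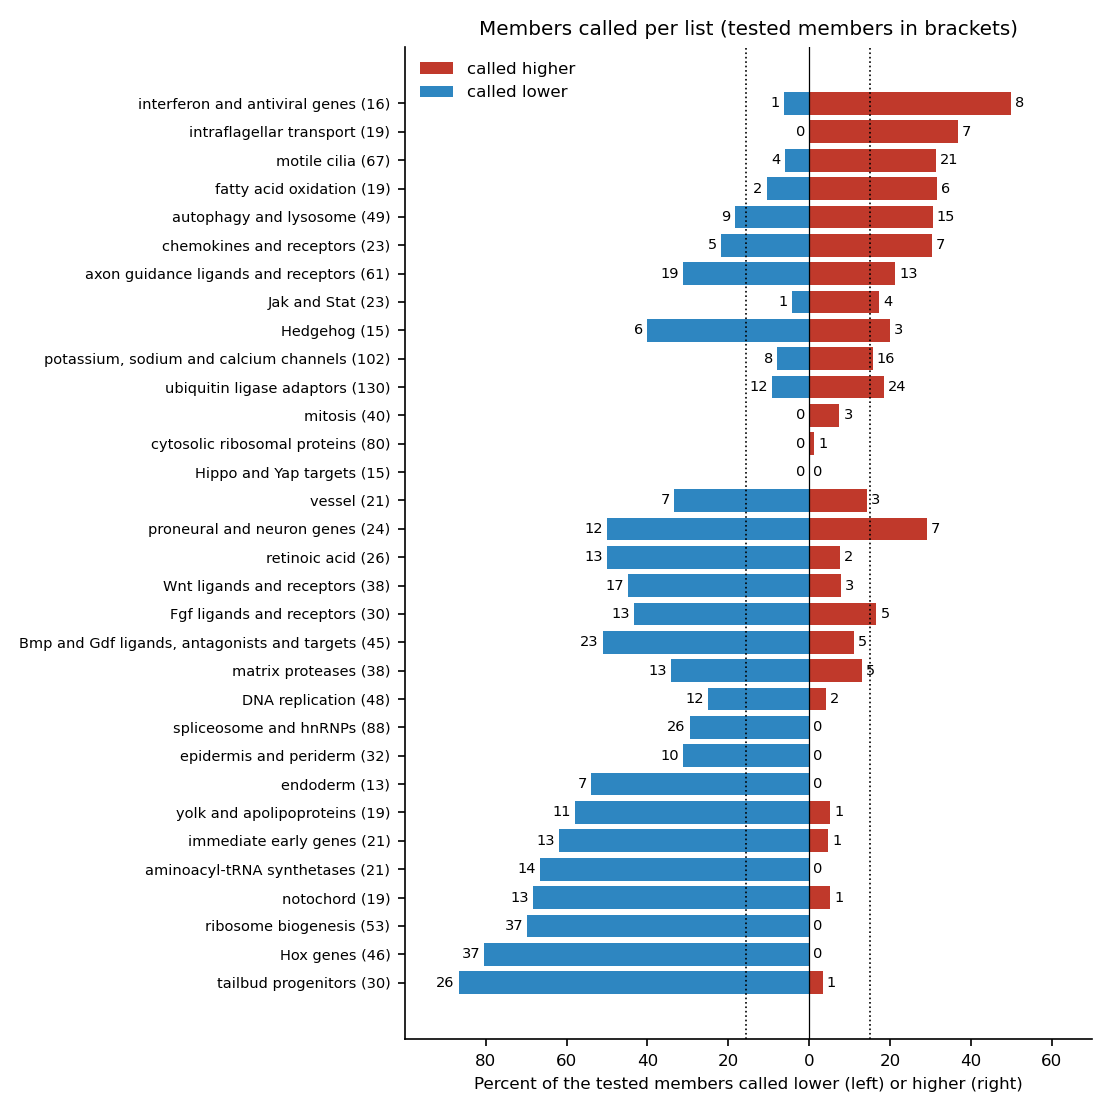
Percent of the tested members of 32 lists called lower (blue, left) and higher (red, right), with the number called beside each bar and the number tested in brackets. The lists were picked by hand from 97. Others with many falls or rises are not drawn, such as hindbrain (66.7% lower, 16.7% higher) and dual-specificity phosphatases (31.6% lower, 26.3% higher). Dotted lines mark the percent over all genes tested, 15.0% higher and 15.7% lower. The bar for tailbud progenitors reaches furthest to the left, with 26 of 30 lower, and that for interferon genes furthest to the right, with 8 of 16 higher. Many of the tailbud progenitor genes are ones that the study reports as repressed by tbx16 in these same samples.

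Neuronal genes were called in both directions. Of 24 proneural and neuron genes 7 were higher (29.2%, against 15.0% of all genes) and 12 lower (50%, against 15.7%). The RNA-binding protein genes *elavl3* and *elavl4*, both neuronal, went opposite ways, *elavl3* at 15.4, 8.27 and 15.9 CPM in the tg(*hsp70l:tbx16*) samples and 99.3, 90.4 and 122 CPM in wild type (log2 fold change -2.98 ± 0.28, adjusted p = 5.9e-05) and *elavl4* at 17.6, 11.0 and 8.71 against 2.71, 2.13 and 2.79 CPM (log2 fold change 2.28 ± 0.34, adjusted p = 0.00087). *lhx5*, a LIM homeodomain gene of interneurons, was at 10.8, 5.36 and 4.49 against 1.34, 0.993 and 0.890 CPM (log2 fold change 2.67 ± 0.37, adjusted p = 0.00055), and *gap43*, a growth cone gene, at 10.2, 11.2 and 8.02 against 3.69, 2.13 and 2.74 CPM (log2 fold change 1.78 ± 0.31, adjusted p = 0.002). The motor neuron genes *isl1* and *mnx1* fell, with log2 fold changes of -2.71 and -2.17. Among 102 ion channel genes 16 were higher, which at 15.7% is about the 15.0% of all genes, and 8 were lower. *kcnh6a*, a potassium channel gene of the heart and nervous system, was at 39.9, 34.9 and 15.08 against 3.99, 1.90 and 5.004 CPM (log2 fold change 3.04 ± 0.41, adjusted p = 0.00053). The higher count was 8 without transgenic replicate 1 or wild-type replicate 1, and 10 without transgenic replicate 2 or wild-type replicate 2. Among hindbrain genes, besides *mafba*, *irx7* was at 9.63, 3.43 and 4.22 against 1.21, 0.876 and 1.37 CPM (log2 fold change 2.31 ± 0.52, adjusted p = 0.0076), while 8 of 12 were lower.

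Most genes of the progenitor list fell. Of 30 tailbud progenitor genes, 28 of them in the transition lists, 26 were lower (86.7%, against 15.7% of all genes). The only rise was *tbx16* itself. Many of these genes are ones that the study reports as repressed by *tbx16* in these same samples, so the count is no independent support. Of the 3125 genes called lower, 2654 were outside the transition lists. *tbxta*, the Brachyury gene, was at 72.0, 97.7 and 116 against 293, 315 and 337 CPM (log2 fold change -1.73 ± 0.16, adjusted p = 5.4e-05), and *noto*, a homeobox gene of the notochord, at 3.01, 3.77 and 2.82 against 38.3, 46.4 and 48.4 CPM (log2 fold change -3.79 ± 0.16, adjusted p = 1.1e-06). Of 46 Hox genes 37 were lower (80.4%, against 15.7% of all genes), and none was higher by edgeR against 1 by DESeq2, with a median of -1.18. The lower count was 29 to 37 when single libraries were left out. *hoxd13a*, a gene of the posterior end of its cluster, was at 0.285, 0.357 and 0.378 against 9.16, 10.8 and 9.26 CPM (log2 fold change -4.82 ± 0.41, adjusted p = 3.3e-05). Of 21 immediate early genes, which respond to growth factor signals and to handling, 13 were lower (61.9%, against 15.7% of all genes). Among them was *egr1* at 0.636, 0.572 and 0.622 against 11.2, 9.05 and 7.99 CPM (log2 fold change -3.94 ± 0.26, adjusted p = 8.9e-06). In the same list *klf2b* was higher, a call lost when any library but wild-type replicate 2 was left out.

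Some markers of tissues next to the tailbud were lower too. Of 32 skin genes 10 were lower (31.25%, against 15.7% of all genes) and none higher, and DESeq2 gave the same counts. Of the 10, *krtcap2* only shares letters with the keratins. The median of the list was -0.38, but 0.14 without wild-type replicate 2. The summed level of this list was 6629 to 11600 CPM in tg(*hsp70l:tbx16*) and 4196 to 15300 CPM in wild type, so its total overlapped between the groups. The epidermal factor *tp63* was at 71.9, 53.1 and 56.2 against 148, 151 and 157 CPM, and the transcription factor gene *tfap2c*, active in skin and neural crest, at 69.3, 63.0 and 102 against 298, 313 and 277 CPM. Of 19 yolk and apolipoprotein genes 11 were lower, with sums of 2771 to 3128 CPM against 4954 to 5432 CPM, and the count was 5 without transgenic replicate 3 or wild-type replicate 1 and 7 without wild-type replicate 2. *apobb.1*, a lipoprotein gene of the yolk cell, was at 135, 9.35 and 18.9 against 412, 393 and 345 CPM (log2 fold change -2.82 ± 0.77, adjusted p = 0.02), where transgenic replicate 1 again lay far above the other transgenic samples. Without that library its log2 fold change was -4.76, 14 genes of the list were lower and the median moved from -2.34 to -4.15. The call of *apobb.1* was lost without transgenic replicate 3 or wild-type replicate 1. DESeq2 called 8 lower. Outside the list, *fgb*, a fibrinogen gene, was at 0.351, 0.107 and 0.133 against 7.07, 8.73 and 3.66 CPM (log2 fold change -5.04 ± 0.60, adjusted p = 0.00024). Of 13 endoderm genes 7 were lower, with sums of 95.4 to 117.0 CPM against 196 to 227 CPM. A role of the cut or of attached tissue in these differences was not tested.

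Pairs of genes with names that differ only in a final a or b moved together more often than apart where both were called. Such names mostly mark copies from the genome duplication of fishes, although some, such as *mafa* and *mafb*, are older relatives. There were 2140 pairs with both genes tested. Both were called in 306 pairs, of which 73 rose together, 120 fell together and 113 (36.9%) moved in opposite directions, 36 of them by at least 2-fold each. *ppp1r3aa* was at 5.11, 4.13 and 5.71 CPM in the tg(*hsp70l:tbx16*) samples and 0, 0 and 0.385 CPM in wild type and *ppp1r3ab* at 0.505, 0.268 and 0.444 against 6.13, 8.41 and 11.1 CPM (log2 fold changes 5.21 and -4.40). *notum1b* rose as given above while *notum1a* fell, at 5.09, 3.65 and 3.46 against 23.7, 19.8 and 32.1 CPM. *ascl1b*, a proneural gene, was at 7.96, 6.84 and 7.51 against 1.299, 1.64 and 1.88 CPM and its namesake *ascl1a* at 0.417, 0.340 and 0.178 against 4.63, 2.98 and 2.94 CPM. Another line named *ascl1b* was not called in the main fit, only with the 6 samples alone. *pgam1b*, a glycolytic enzyme gene, was at 18.6, 18.5 and 15.4 against 7.11, 8.003 and 6.11 CPM and *pgam1a* at 9.94, 9.67 and 10.7 against 26.7, 23.1 and 22.6 CPM. In these pairs neither gene overlapped between the groups, which the naming rule required of all but *ascl1a* and *ppp1r3ab*. How the counting split reads shared by near-identical copies is not given in the sources used here, so these pairs are uncertain.

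The line difference was tested directly with the contrast of tg(*hsp70l:tbx16*) against tg(*hsp70l:msgn1*) in the same fit, where 7637 genes were called (38.3%), 18.5% of the genes tested being higher in tg(*hsp70l:tbx16*). Against wild type the *msgn1* line itself had 71 genes higher (0.357%) and 99 lower (0.497%). The *msgn1* samples differed more among themselves. Their median standard deviation of log2 CPM was 0.295, against 0.188 in wild type and 0.208 in tg(*hsp70l:tbx16*). The study reported more genes for this contrast by DESeq2 with a fold threshold. So few calls do not show that *msgn1* had little effect. Of the 2995 genes called higher against wild type, 2423 were also higher than in the *msgn1* line and 6 were lower, and of the 3125 called lower 2555 were also lower. These comparisons share the tg(*hsp70l:tbx16*) samples, so the overlap is no independent support. Among the genes described here, *npas4l* was higher than in the *msgn1* line by 2.96 (adjusted p = 9.8e-06), *jak2a* by 2.71 (adjusted p = 5.9e-06) and *gli1* by 1.21 (adjusted p = 0.00078) on the log2 scale. For *cxcr4b* the sign turned, -1.17 (adjusted p = 0.0003), with the *msgn1* samples at 93.8, 76.2 and 83.2 CPM. *rplp2* and *igf2a*, an Igf ligand gene that was higher than in wild type, did not pass against the *msgn1* line (adjusted p = 0.48 and 0.83).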

How the data were processed

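PolyA RNA of pooled tailbuds was sequenced in 9 samples, 3 per genotype. Whole-number counts per gene were deposited by the authors, not normalized; per the labels and methods, reads were trimmed with Trim Galore 0.5.0, aligned to GRCz11 with HISAT2 2.1.0 and assembled with StringTie. The annotation release, the counting strand and the step to whole numbers are not given in the sources used here, so antisense, overlapping and near-identical genes, and 587 tested lines with repeated names, are uncertain. Lines with no gene name (64, 0.082 to 0.101% of counts) were removed.

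Counts were fitted with edgeR 4.0.16 (R 4.3.3; filterByExpr, TMM, quasi-likelihood test, Benjamini-Hochberg) over all 9 samples, after tests on simulated data. CPM values are TMM-scaled. The standard error is the log2 fold change divided by the square root of F. DESeq2 1.42.0, RLE factors, library totals alone, other filters and thresholds, the 6 samples alone, a replicate block and each library left out were alternatives. Groups of 3 allow no test for a stray sample.

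The comparison, the 97 gene lists and the transition names (1153, from tables of the study) were chosen with earlier results of these data known; 1 list had no line in the table. Named genes were the design checks, the 20 largest rises and 10 largest falls outside the transition lists (mean of at least 100 counts over the 6 samples, no overlap), and up to 5 rises and 3 falls per list by the same conditions. Chosen after their values were seen were *apoea*, *ascl1a*, *cdh5*, *coro1a*, *crabp2b*, *ctsc*, *cyp26a1*, *elavl3*, *eomesa*, *eomesb*, *fli1a*, *foxg1d*, *foxj1a*, *gata1a*, *grem1b*, *grem2b*, *isl1*, *krtcap2*, *lmo2*, *mxa*, *myf5*, *myod1*, *nog3*, *nolc1*, *pcna*, *ppp1r3ab*, *rargb*, *rdh10a*, *reck*, *rfx2*, *rfx3*, *rsad2*, *sctr*, *slc24a5*, *szl*, *tbx6* and *tp63*. Level bins used the mean over 6 samples in place of the wild-type mean. P-values measure the spread between pools within the groups, estimated over all 9 samples, and counting intervals are not given.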

Additional observations from a re-analysis of the deposited data

How the results depend on the processing

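No gene called both times changed sign in any alternative fit. These fits share most or all of the libraries, so a change of sign was hardly possible and its absence is no independent support. The count of 6120 called genes became 3213 at an adjusted p under 0.01, with 1462 higher and 1751 lower. Without single libraries it ranged from 3968 to 4877, with 1825 to 2369 higher and 2143 to 2547 lower; the lowest values came without wild-type replicate 1. The remaining alternatives gave 4801 to 7273 calls. Library totals alone gave 3757 higher and 2204 lower, a shift that follows from the scaling, and moved the median log2 fold change to 0.18. Lists of small changes depend most on this, such as cytosolic ribosomal proteins and mitosis. Same-numbered replicates had correlations of -0.044, 0.116 and -0.069, within the range of other pairs (-0.150 to 0.173). No label pairs the samples, and these few values cannot exclude a pairing. A fit with the replicate block called 5436 genes, 2624 higher and 2812 lower. Among the named genes no call turned its direction. Few counts limit the lowest bin of expression. The cause of other changes was not tested.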
